A study of Homo sapiens with 18 samples.

Results

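The Sec61 translocon and its partners are described here by 9 human transcripts, 1 for each of the genes SEC61A1, SEC61B, SEC62, SEC63, SSR1, SSR2, SSR3, TRAM1 and SRPRA. The transcripts were chosen by Ensembl identifier, and each was kept only if its deposited length equalled the length of its protein less a trim shared by all. All 9 were found, with a trim of 20 codons in the footprint tables and 19 codons in the mRNA tables, among 26679 footprint entries and 98334 mRNA entries. They are ENST00000243253 (SEC61A1), ENST00000223641 (SEC61B), ENST00000337002 (SEC62), ENST00000369002 (SEC63), ENST00000244763 (SSR1), ENST00000295702 (SSR2), ENST00000265044 (SSR3), ENST00000262213 (TRAM1) and ENST00000332118 (SRPRA). All 9 passed the filter on low counts in both assays. For footprints the filter ran over all 12 libraries together, so genes with few cytosol counts could pass through their membrane libraries. For SEC62 and SSR2, 2 entries carried identical counts in each assay and were treated as 1 feature.

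The series examined UFMylation, the attachment of the ubiquitin-like protein UFM1 to other proteins, in HEK293, an established human embryonic kidney line. It compared 3 lines: unedited cells (WT), a clonal UFM1-KO line made with Cas9 and a guide to UFM1, and a clonal UFSP2-KO line, likewise made with Cas9, without UFSP2, a protease that removes UFM1 from modified proteins. Ribosome footprints, the stretches of mRNA that a ribosome shields from RNase I, were sequenced from a cytosolic fraction and from the membrane fraction left in the pellet, and mRNA was sequenced from whole cells, with 2 libraries (a and b) in each of 9 groups. Each knockout is 1 clone, so the knockout and the clone cannot be told apart, and the labels do not say that a and b were separate cultures, so p-values measure the spread between these libraries. Library totals were 1393032 to 11388755 footprint counts and 37451244 to 68675420 mRNA counts. The loss of UFM1 or UFSP2 was not checked in the counts here. In bulk libraries like these, a change in every cell and a change in some of the cells cannot be told apart.

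The Sec61 complex is the channel through which secreted and membrane proteins enter the endoplasmic reticulum (ER) while they are being made. Ribosomes reach it through the signal recognition particle (SRP) and its receptor at the ER, and a ribosome docked on the channel is recovered with membranes. UFM1 is attached mainly to RPL26, a ribosomal protein that lies near the exit of the nascent chain and the docking site on the translocon.

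The genes fall into 4 roles. SEC61A1 encodes the channel itself and SEC61B a small tail-anchored subunit, whose only membrane segment lies at the end of the protein. SEC62 and SEC63 encode membrane proteins that help the channel open for some substrates, and SEC63 also recruits the lumenal chaperone BiP. SSR1, SSR2 and SSR3 encode the alpha, beta and gamma subunits of the translocon-associated protein (TRAP) complex, and TRAM1 encodes a membrane protein next to the channel. SRPRA encodes the alpha subunit of the SRP receptor, which is held at the ER through its beta subunit.

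In RefSeq on GRCh38.p14, SEC61A1 lies on chromosome 3 from 128051641 to 128071683, SEC62 on chromosome 3 from 169966807 to 169998373, and SSR3 on chromosome 3 from 156539553 to 156555117. SSR2 lies on chromosome 1 from 156009048 to 156020951. SSR1 spans 7281143 to 7313199 and SEC63 spans 107867756 to 107958208 on chromosome 6. SEC61B lies on chromosome 9 from 99222282 to 99230615, and SRPRA on chromosome 11 from 126235930 to 126268895. The position of TRAM1 is not given here. The deposited lengths match coding sequences, so the counts were read as counts over the coding exons of the named transcripts.

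Levels of different genes were compared as footprints per 100 codons, in CPM (edgeR's library-scaled counts, with TMM factors). At WT membranes the TRAP beta gene SSR2 had the highest density, 282 and 285 CPM per 100 codons in libraries a and b. The channel gene SEC61A1 followed with 123 and 125, and its neighbours in the order overlapped: SSR1 had 90.9 and 123, SSR3 had 82.0 and 109, SEC61B had 62.9 and 88.7, and TRAM1 had 51.7 and 68.9. SEC62, with 31.9 and 39.3, and SEC63, with 30.2 and 36.7, overlapped each other and stood below all of these. SRPRA was lowest, with 20.2 and 23.2. Each gene from SEC61A1 to TRAM1 overlapped the next in the order, while SSR2 and SRPRA stood clear of their neighbours.

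**Figure D1:**
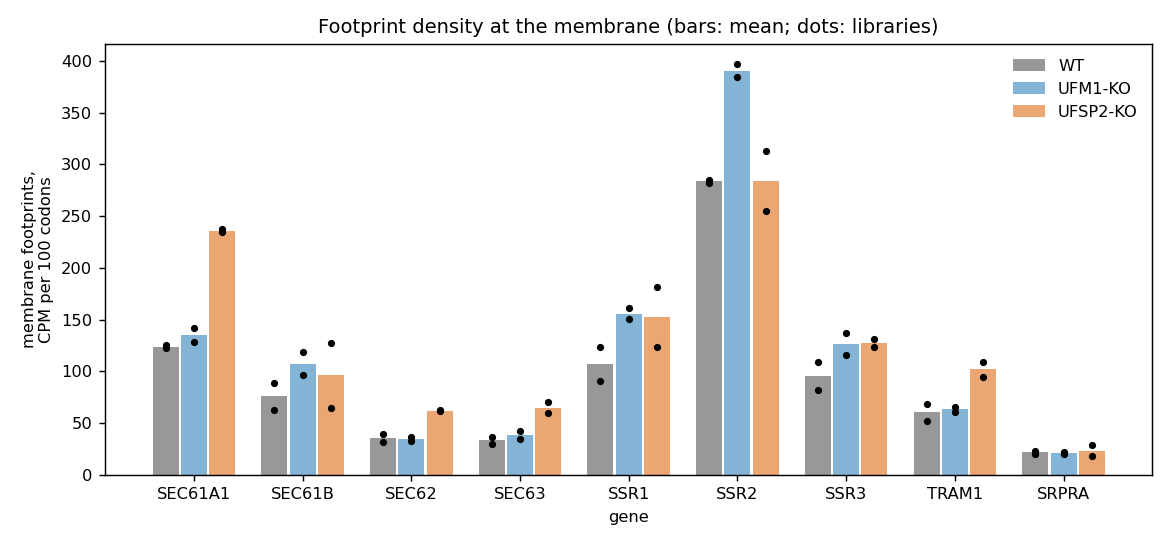
Footprint density at the membrane for each gene (y axis, CPM per 100 codons), with bars for the mean and dots for libraries a and b of WT, UFM1-KO and UFSP2-KO. SSR2 had the tallest bar in all 3 lines, and the SEC61A1 bar of UFSP2-KO, with libraries at 237 and 235, stood above those of the other lines.

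The first comparison asked where the genes were translated, by setting membrane against cytosol footprints within a line. In WT, 8 of the 9 genes had more footprints at the membrane and SEC61B had fewer, whereas 25.3% of all 11065 tested features were called higher and 12.2% lower. The median log2 ratio was 7.23 over the 9 genes and -0.02 over all features. Calls are at an edgeR quasi-likelihood adjusted p under 0.05, two-sided, with Benjamini-Hochberg adjustment over all features. The 8 genes were called higher in both knockout lines too, where the shares of all features were 23% (UFM1-KO) and 24.8% (UFSP2-KO), and no member was called lower, against 5.87% and 12.2%.

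SEC61A1, the channel, gave 560 and 571 CPM in WT membrane libraries a and b, whereas WT cytosol libraries held 3.0 and 0.921 CPM. The cytosol values rested on 3 and 4 counts, so the fold in each library was loosely bounded: 187 (95% counting interval 63.8 to 907) in a and 619 (242 to 2274) in b. In UFM1-KO the membrane had 585 and 649 CPM, and the cytosol of library a had 0 counts. With 3 counts as the floor the fold there would be 285, and its 95% counting interval began at 231. In UFSP2-KO the membrane had 1082 and 1070 CPM and the cytosol 10.7 and 5.87 CPM, from 12 and 20 counts. Membrane and cytosol values of SEC61A1 did not overlap in any line, with log2 ratios of 8.68 (SE 0.41) for WT, 8.70 (SE 0.41) for UFM1-KO and 7.19 (SE 0.33) for UFSP2-KO. Intervals and floors cover counting error only. Over both WT libraries the fold was 433 (95% counting interval 210 to 1079). The SEs were derived from the F statistic and can understate the error of ratios that rest on so few counts.

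The other 6 multi-spanning or signal-bearing membrane proteins were also translated mainly at the membrane. For SEC62, SEC63, SSR1, SSR2, SSR3 and TRAM1 the WT log2 ratios ran from 5.30 (SE 0.32) for SSR3 to 8.08 (SE 0.47) for TRAM1. In UFM1-KO they ran from 5.49 (SE 0.40) for SEC62 to 7.86 (SE 0.41) for SSR1, and in UFSP2-KO from 5.52 (SE 0.32) for SSR3 to 6.99 (SE 0.33) for SSR2. These 6 genes had 0 to 18 counts per cytosol library, and TRAM1 had 0 counts in cytosol library a of UFM1-KO, where its fold was at least 105. The few cytosol counts limit the precision of each of these ratios, and their SEs can be too small for the same reason.

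SEC61B, whose protein is tail-anchored and inserted after synthesis, was spread over both fractions. WT membrane libraries held 47.8 and 67.4 CPM of its footprints, and WT cytosol libraries 114 and 103 CPM. Both cytosol values were the higher ones, a log2 ratio of -0.88 (SE 0.27, edgeR adjusted p = 0.0107). UFM1-KO membranes had 90.5 and 73.0 CPM against 108 and 78.2 CPM for its cytosol, which overlapped, at -0.16 (SE 0.27, edgeR adjusted p = 0.735). UFSP2-KO membranes had 97.2 and 49.3 CPM against 91.4 and 129 CPM for its cytosol, also overlapping, at -0.64 (SE 0.27, edgeR adjusted p = 0.0722). The WT call ended without WT membrane library a, where the ratio was -0.67 (edgeR adjusted p = 0.132), and under DESeq2. In UFSP2-KO a call of lower appeared without membrane library a, at -1.18 (edgeR adjusted p = 0.00518), and without cytosol library a, at -0.84 (edgeR adjusted p = 0.0305), while without membrane library b the ratio was -0.20 (adjusted p = 0.696). SEC61B was also called lower in UFSP2-KO with scaling to library size only (-0.83, edgeR adjusted p = 0.015), with no low-count filter (-0.69, adjusted p = 0.0284) and with only the groups compared (-0.67, adjusted p = 0.0293).

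SRPRA lay between these patterns. WT membrane libraries held 125 and 143 CPM of its footprints and WT cytosol libraries 33.0 and 26.3 CPM, a log2 ratio of 2.23 (SE 0.27, edgeR adjusted p = 5.08e-08). UFM1-KO membranes had 138 and 126 CPM against 77.5 and 58.0 CPM for its cytosol, a ratio of 0.98 (SE 0.25, edgeR adjusted p = 0.00235). That call ended without cytosol library b of UFM1-KO, at 0.73 (edgeR adjusted p = 0.0828). UFSP2-KO membranes had 112 and 176 CPM against 45.2 and 63.2 CPM for its cytosol, a ratio of 1.38 (SE 0.25, edgeR adjusted p = 4.39e-05). Both membrane values exceeded both cytosol values in each line.

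**Figure D2:**
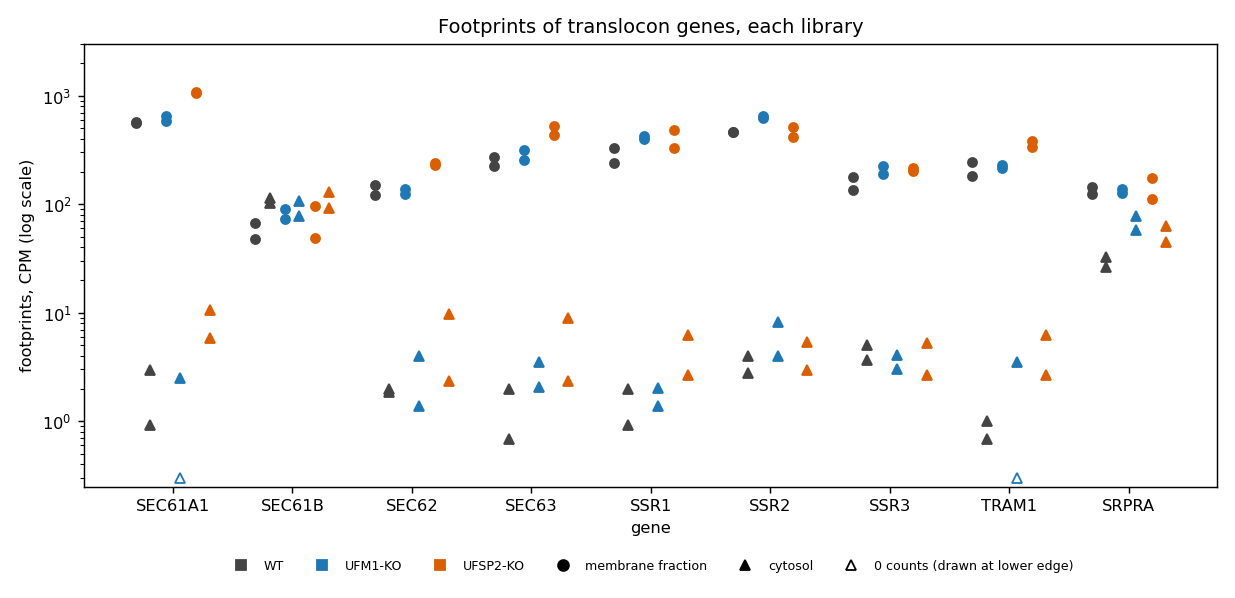
Footprints of each gene in every library (y axis, CPM on a log scale), with circles for membrane and triangles for cytosol libraries, coloured by line; open triangles at the lower edge mark 0 counts. SEC61B circles and triangles all lie between 47.8 and 129, and SRPRA triangles lie nearer to their circles than those of the other 7 genes.

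**Figure D3:**
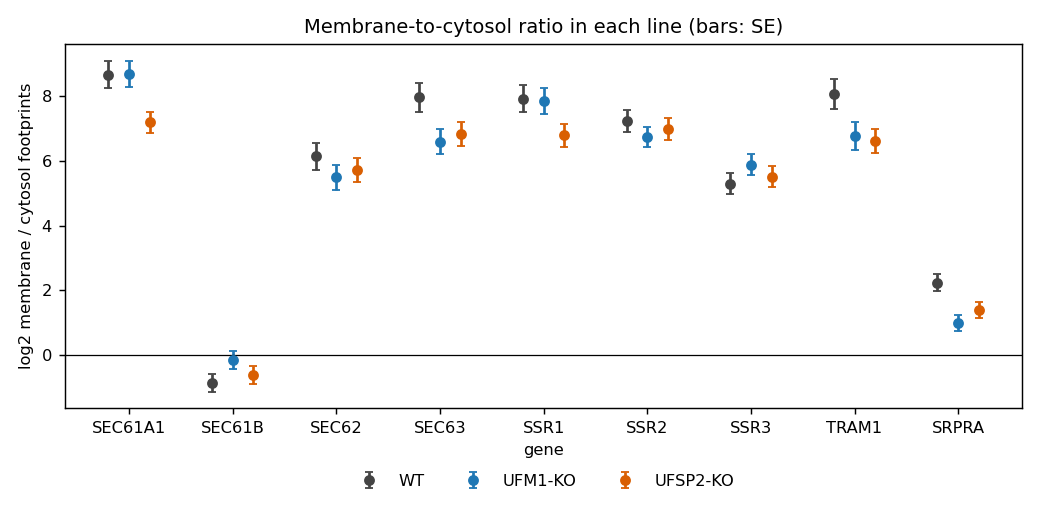
Log2 ratio of membrane to cytosol footprints (y axis) for each gene in WT, UFM1-KO and UFSP2-KO, with bars for the SE. In every line 7 genes lie above 5, SRPRA lies between 0.98 and 2.23, and SEC61B lies below 0. Bars of those 7 genes can understate the error, since their cytosol counts were few.

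The next comparison asked whether these ratios differed between lines. By edgeR, 0 of 9 genes were called for UFM1-KO against WT, 0 of 9 for UFSP2-KO against WT and 0 of 9 for UFM1-KO against UFSP2-KO, with backgrounds of 0.00904%, 0.00904% and 0.0362% of all features. Members with an unadjusted edgeR p under 0.05 numbered 1, 2 and 1, against 539, 487 and 742 of all 11065 features. DESeq2 called 0 members in each. SRPRA had the member ratio with the smallest p in UFM1-KO, a log2 change of -1.26 (SE 0.36, unadjusted p = 0.00173 by edgeR, adjusted p = 0.771). In UFSP2-KO it was -0.86 (SE 0.36, unadjusted p = 0.0255 by edgeR). The SEC61A1 ratio changed by -1.48 (SE 0.66, unadjusted p = 0.0325 by edgeR) in UFSP2-KO and by 0.02 (SE 1.20) in UFM1-KO, where its cytosol libraries had 0 and 5 counts. No difference of these ratios between lines passed the test, and the SEs of the 7 genes with few cytosol counts are 0.54 to 1.20.

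In membrane footprints of UFSP2-KO against WT, SEC61A1, SEC62, SEC63 and TRAM1 rose, 4 of 9 genes, while 11.1% of all features were called in either direction and 5.24% higher. All 9 log2 changes were above 0, as were 51.0% of those of all features, with a median of 0.51 against 0.01 over all features. SSR2 was at 0.002, and at -0.044 with scaling to library size only. SEC61B, the 3 TRAP genes and SRPRA were not called. Other membrane-enriched features moved the same way: those enriched over 2-fold by the UFM1-KO libraries, the 9 genes left out, had a median change of 0.19, against -0.04 for the remaining features. Features so enriched in all 3 lines took 25.2% and 24.4% of the counts of WT membrane libraries a and b, 28.15% and 29.2% of those of UFSP2-KO, and 26.9% and 27.4% of those of UFM1-KO. That class was picked with these same libraries. The part of this wider shift in the changes of the 9 genes was not tested.

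The SEC61A1 membrane values quoted above were 1082 and 1070 CPM in UFSP2-KO against 560 and 571 CPM in WT. Both UFSP2-KO libraries were above both WT libraries, a log2 change of 0.93 (SE 0.22, edgeR adjusted p = 0.00731). SEC63 had 439 and 522 CPM against 224 and 272 CPM in WT, again without overlap, a change of 0.95 (SE 0.24, edgeR adjusted p = 0.00872). SEC62, its partner, had 239 and 232 CPM against 121 and 149 CPM, a change of 0.80 (SE 0.24, edgeR adjusted p = 0.0296). TRAM1 had 336 and 387 CPM against 183.1 and 244 CPM, a change of 0.75 (SE 0.24, edgeR adjusted p = 0.042). In all 4 genes the UFSP2-KO libraries lay above the WT libraries. The share of all features without overlap between groups was not counted, in this or any other comparison.

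With 1 library left out most of these calls ended. Each of the 4 omissions (UFSP2-KO membrane a or b, WT membrane a or b) ended the calls of SEC61A1 (log2 0.92 to 0.95, edgeR adjusted p 0.0627 to 0.0913), SEC62 (0.66 to 0.96, 0.0916 to 0.231) and TRAM1 (0.57 to 0.98, 0.0908 to 0.323). SEC63 kept its call in 1 of the 4 omissions, that of UFSP2-KO library a (0.82 to 1.11, edgeR adjusted p 0.0317 to 0.133). DESeq2 called SEC61A1 and SEC63 only.

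No TRAP subunit was called at the membrane of UFSP2-KO. SSR2 had 416 and 510 CPM against 460 and 465 CPM in WT, overlapping, with a log2 change of 0.00 (SE 0.21, edgeR adjusted p = 0.997). SSR1 had 328 and 483 CPM against 242 and 328 CPM, at 0.51 (SE 0.23, edgeR adjusted p = 0.153), and was called in a model of only the 2 groups compared, at 0.48 (edgeR adjusted p = 0.0364). SSR3 had 203 and 216 CPM against 135 and 180 CPM, at 0.41 (SE 0.21, edgeR adjusted p = 0.221). SSR3 libraries did not overlap between the lines, but neither it nor SSR1 passed the test. SRPRA was at 0.11 (SE 0.23) and SEC61B at 0.30 (SE 0.27).

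Ratios of 2 subunits within a library do not depend on scaling between libraries. Per codon, SSR1 to SSR2 footprints of WT membranes were 0.322 and 0.432, those of UFM1-KO were 0.392 and 0.407, and those of UFSP2-KO were 0.483 and 0.581. SSR3 to SSR2 was 0.290 and 0.382 for WT, 0.357 and 0.293 for UFM1-KO, then 0.483 and 0.418 for UFSP2-KO. In both pairs the UFSP2-KO libraries lay above the WT libraries and the UFM1-KO libraries lay within the WT range. The exact permutation test, two-sided, gave p = 0.33 for UFSP2-KO against WT in each pair, the smallest p that 2 libraries against 2 allow. SEC62 to SEC63 was near parity, with a mean of 1.06 ± 0.00849 (SD, n = 2) for WT, 0.911 ± 0.182 for UFM1-KO and 0.965 ± 0.137 for UFSP2-KO. Here the UFM1-KO libraries, at 1.039 and 0.782, lay below the WT libraries, at 1.057 and 1.069. The exact permutation test, two-sided, again gave p = 0.33 for UFM1-KO against WT, and the UFSP2-KO libraries overlapped those of WT.

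In UFM1-KO, edgeR called 0 of 9 genes in membrane footprints against WT, where 1.26% of all features were called, and DESeq2 called 0. An unadjusted edgeR p under 0.05 was found for 2 genes, both of the TRAP complex, and for 1240 of all 11065 features. SSR1 had 400 and 429 CPM against 242 and 328 CPM in WT, a log2 change of 0.54 (SE 0.23, edgeR adjusted p = 0.34). SSR2 had 626 and 647 CPM against 460 and 465 CPM, at 0.46 (SE 0.20, edgeR adjusted p = 0.379). For both genes every UFM1-KO library lay above every WT library, as was also so for SEC61A1, SEC61B and SSR3. None of these genes passed the test, and the share of all features so separated was not counted. SEC61A1, with 585 and 649 CPM against 560 and 571 CPM, changed by 0.13 (SE 0.22).

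Set directly against each other, the knockouts differed at the same 4 genes, which were lower in UFM1-KO, and 21.4% of all features were called. The log2 differences were -0.80 (SE 0.22) for SEC61A1, -0.84 (SE 0.24) for SEC62, -0.76 (SE 0.24) for SEC63 and -0.69 (SE 0.24) for TRAM1, with edgeR adjusted p of 0.0112, 0.0129, 0.0219 and 0.0406. This comparison uses the same UFSP2-KO libraries as that with WT, so the second is no independent repeat of the first. Leaving out UFM1-KO membrane library a or UFSP2-KO membrane library b left 0 of these calls, leaving out UFSP2-KO library a left 1 and leaving out UFM1-KO library b left 2. DESeq2 called 2, SEC61A1 and SEC62.

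**Figure D4:**
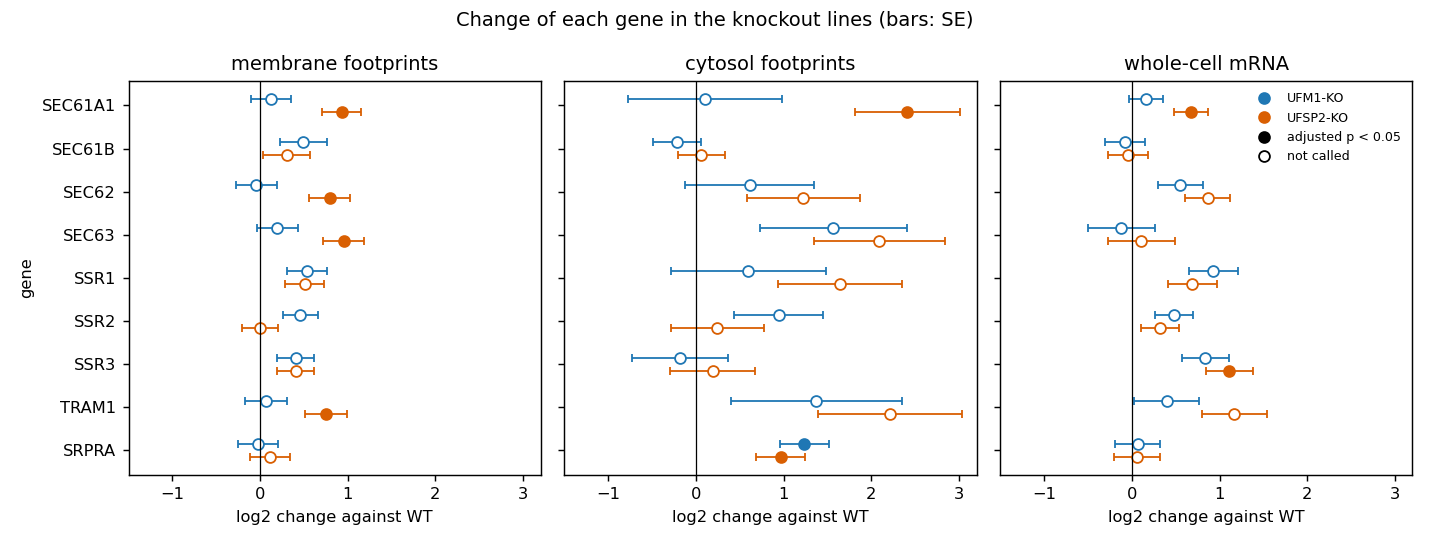
Log2 change against WT (x axes) of each gene in membrane footprints, cytosol footprints and whole-cell mRNA, for UFM1-KO and UFSP2-KO, with bars for the SE and filled points where the edgeR adjusted p was under 0.05. Filled membrane points occur for UFSP2-KO at SEC61A1, SEC62, SEC63 and TRAM1, filled cytosol points for SRPRA in both lines and SEC61A1 in UFSP2-KO, and filled mRNA points for SEC61A1 and SSR3 in UFSP2-KO.

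In the cytosol the gene with a usable number of counts that changed was SRPRA. Its cytosol values quoted above rested on 33 to 215 counts per library. The lowest knockout library, at 45.2 CPM, was above the higher WT library, at 33.0 CPM. The log2 change was 1.24 (SE 0.28, edgeR adjusted p = 0.0316) in UFM1-KO, where 1 of 9 genes was called against 0.85% of all features. It was 0.97 (SE 0.28, edgeR adjusted p = 0.0486) in UFSP2-KO, where 2 of 9 genes were called against 3.99%. Both comparisons use the same WT libraries.

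The SRPRA calls each ended without WT cytosol library b. In UFM1-KO the call also ended without UFM1-KO cytosol library a, and the omissions spanned 1.02 to 1.45 with edgeR adjusted p of 0.0268 to 0.343. In UFSP2-KO it also ended without UFSP2-KO cytosol library b, and the omissions spanned 0.76 to 1.15 with adjusted p of 0.0374 to 0.346. A model of only the groups compared called neither, and DESeq2 called SRPRA in UFM1-KO but not in UFSP2-KO.

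The second cytosol call in UFSP2-KO was SEC61A1, with 12 and 20 counts (10.7 and 5.87 CPM) against 3 and 4 counts in WT. Both UFSP2-KO libraries were above both WT libraries, a log2 change of 2.41 (SE 0.60, edgeR adjusted p = 0.0193). Omitting UFSP2-KO library a or WT library b ended the call, and the omissions spanned 1.27 to 3.10 with adjusted p of 0.00947 to 0.508. A model of only the groups compared did not call it. Without UFSP2-KO cytosol library b, the log2 change was 2.50 for SEC62 and 3.31 for SEC63, on 2 to 11 counts per library. With so few cytosol counts, SEC61A1, SEC62 and SEC63 could each pass the filter through their membrane libraries. Other omissions took SEC62 to 0.33 (without UFSP2-KO library a, edgeR adjusted p = 0.888) and SEC63 to 1.05 (without WT library b, adjusted p = 0.709). For UFM1-KO, with 0 and 5 SEC61A1 counts, against UFSP2-KO, edgeR gave -2.31 (SE 0.65, adjusted p = 0.0207), the 1 call among 9 genes where 12% of all features were called. SEC61A1 entered that test through its membrane libraries, and in a model of only the 2 cytosol groups its counts fell under the filter, so this value rests on few counts. Omitting library a of either line ended the call, and the omissions spanned -7.49 to -1.52 (edgeR adjusted p 0.0105 to 0.177), the widest value leaving a library of 0 counts alone.

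Other features of the membrane fraction had higher median cytosol changes than the rest, in 2 comparisons that use the same WT cytosol libraries. Features that were over 2-fold membrane-enriched by the other knockout line's libraries, the 9 genes left out, had a median cytosol change of 0.29 (UFM1-KO) and 0.31 (UFSP2-KO), against -0.02 and -0.03 for the remaining features. Features so enriched in all 3 lines took 1.21% and 0.83% of the counts of WT cytosol libraries a and b, 1.38% and 1.08% of those of UFM1-KO, then 1.35% and 0.962% of those of UFSP2-KO. These shares overlapped between the lines, and the class was picked with these same libraries. The part of this shift in the cytosol values of SRPRA and SEC61A1 was not tested.

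Whole-cell mRNA gave the amount of message behind these footprints. In UFSP2-KO 2 of 9 genes rose, SEC61A1 and SSR3, where 7.18% of all 13900 tested features were called. The median log2 change of the 9 genes was 0.68, against -0.01 over all features. SEC61A1 had 231 and 232 CPM against 144 and 145 CPM in WT, a log2 change of 0.68 (SE 0.19, edgeR adjusted p = 0.0428), and SSR3 had 57.1 and 105 CPM against 40.4 and 34.4 CPM, a change of 1.11 (SE 0.27, edgeR adjusted p = 0.0217). For both genes the UFSP2-KO libraries lay above the WT libraries, closely matched for SEC61A1 and far apart for SSR3.

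SEC62, with 88.7 and 97.6 CPM against 61.5 and 40.8 CPM, was at 0.87 (SE 0.26, edgeR adjusted p = 0.0535). TRAM1 had 70.7 and 197 CPM against 71.9 and 47.1 CPM, at 1.17 (SE 0.37, edgeR adjusted p = 0.067), and its lines overlapped. SEC63 was at 0.11 (SE 0.38), with 47.6 and 85.0 CPM against 35.6 and 87.4 CPM, so that its 2 WT libraries differed more than the lines. SEC61B, with 36.1 and 36.8 CPM against 39.4 and 35.8 CPM, was at -0.05 (SE 0.23).

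These mRNA calls depended on single libraries. SEC61A1 lost its call without any 1 of the 4 libraries (WT a or b, UFSP2-KO a or b) although its value stayed at 0.68 to 0.71 (edgeR adjusted p 0.0845 to 0.247). SSR3 lost its call without UFSP2-KO mRNA library b, WT library a or WT library b, and kept it without UFSP2-KO library a. Over these 4 omissions its value spanned 0.61 to 1.49 (edgeR adjusted p 0.000405 to 0.268). Without UFSP2-KO mRNA library a, 4 genes were called: SSR3 together with SEC62 (0.94, edgeR adjusted p = 0.0373), SSR1 (1.02, adjusted p = 0.0207) and TRAM1 (1.73, adjusted p = 0.00013). Without UFSP2-KO mRNA library b, TRAM1 was at 0.25 (edgeR adjusted p = 0.729) and SSR1 at 0.27 (adjusted p = 0.695). SEC62 was lowest without WT mRNA library b, at 0.60 (edgeR adjusted p = 0.446).

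For mRNA of UFM1-KO, edgeR called 0 of 9 genes, where 1.97% of all features were called, and DESeq2 called 1, SSR1. By edgeR 4 members had an unadjusted p under 0.05, as did 2252 of all 13900 features. SSR1 had 102 and 62.2 CPM against 40.9 and 45.7 CPM in WT, a log2 change of 0.93 (SE 0.28, edgeR adjusted p = 0.104), and SSR3 had 74.8 and 58.7 CPM against 40.4 and 34.4 CPM, at 0.84 (SE 0.27, edgeR adjusted p = 0.129). In both genes the lines did not overlap, and neither did they for SEC61A1 and SSR2, but the share of all features so separated was not counted. Without UFM1-KO mRNA library b both were called, at 1.24 (edgeR adjusted p = 0.00313) and 1.0 (adjusted p = 0.0302), and without UFM1-KO mRNA library a they were at 0.52 and 0.65, not called. UFM1-KO against UFSP2-KO gave 0 of 9 calls by edgeR, against 15.9% of all features. There 1 member had an unadjusted edgeR p under 0.05, as did 4339 of all 13900 features. DESeq2 called 1, SEC61A1. Leaving out UFM1-KO mRNA library a or UFSP2-KO mRNA library a gave a call of TRAM1 in that comparison, at -1.19 (edgeR adjusted p = 0.00454) and -1.33 (adjusted p = 0.00195), while leaving out UFSP2-KO mRNA library b turned its sign, to 0.15 (edgeR adjusted p = 0.8).

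**Figure D5:**
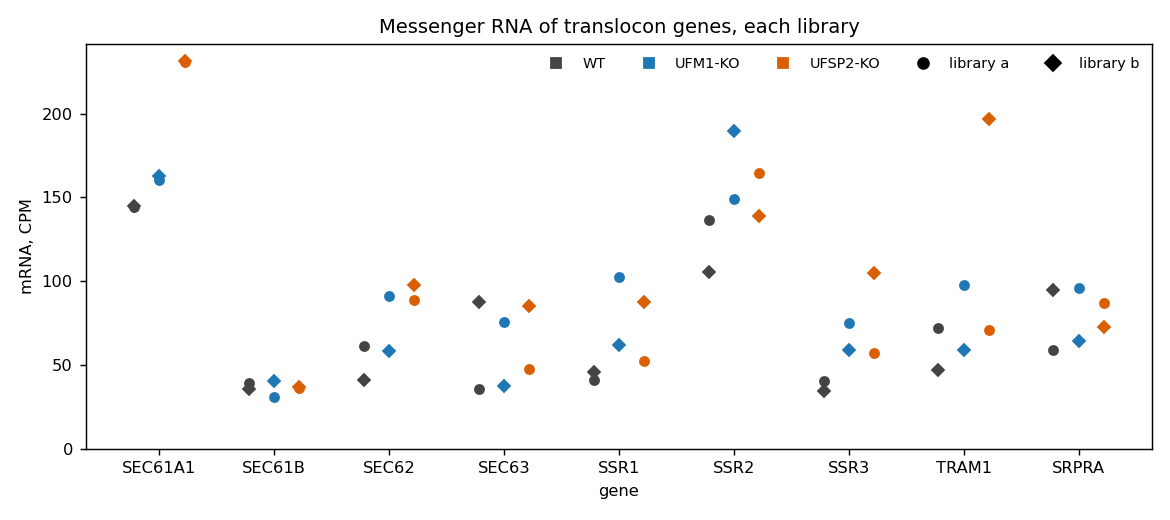
Whole-cell mRNA of each gene (y axis, CPM) in libraries a (circles) and b (diamonds) of WT, UFM1-KO and UFSP2-KO. The SEC61A1 libraries of a line nearly coincide, while TRAM1 in UFSP2-KO runs from 70.7 to 197 and SEC63 in WT from 35.6 to 87.4.

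The messages of SEC61A1 and SEC61B, 2 subunits of the same channel, were also compared within libraries. Per codon, SEC61A1 to SEC61B mRNA was 0.618 and 0.683 for WT, 0.871 and 0.682 for UFM1-KO, then 1.08 and 1.06 for UFSP2-KO. The UFSP2-KO libraries lay above all others, and the exact permutation test against WT, two-sided, gave p = 0.33, the smallest possible. At the membrane the same ratio of footprints was 1.95 and 1.41 for WT and 1.86 and 3.62 for UFSP2-KO, which overlapped.

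The last comparison asked whether footprints changed beyond the mRNA, by subtracting the log2 mRNA change from the log2 footprint change in a joint model of 12629 features. For membrane footprints edgeR called 0 of 9 genes in UFM1-KO and 0 of 9 in UFSP2-KO, where 0% and 0.0792% of all features were called. For cytosol footprints it called 0 of 9 in each, against 0% and 0.0158%. In that order of comparisons, 0, 1, 1 and 2 genes had an unadjusted edgeR p under 0.05, against 540, 1110, 753 and 869 of all 12629 features. DESeq2 called 0 genes in each.

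SEC61A1 at the membrane changed by 0.22 (SE 0.31) beyond its mRNA in UFSP2-KO. SEC63, whose footprints rose while its mRNA was at 0.11, was at 0.81 (SE 0.47, unadjusted p = 0.0945 by edgeR). SSR3 was at -0.74 (SE 0.34, unadjusted p = 0.0381 by edgeR, adjusted p = 0.541). For SRPRA in the cytosol the difference was 1.16 (SE 0.39, unadjusted p = 0.00626 by edgeR, adjusted p = 0.61) in UFM1-KO and 0.94 (SE 0.39, unadjusted p = 0.0238 by edgeR, adjusted p = 0.663) in UFSP2-KO. SRPRA mRNA was 96.2 and 64.3 CPM for UFM1-KO, 87.1 and 72.9 CPM for UFSP2-KO, and 58.8 and 94.7 CPM for WT, so the lines overlapped.

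Sequences at annotated starts of 7 of the 9 genes were read for TGACGTG on either strand (CACGTCA on the other). This letter string is linked to the ER stress response. The string was chosen with the counts known, and other elements of that response were not searched for. RefSeq windows of 300 bases, with 250 before and 50 after an annotated start, were read for these 7 genes and numbered 10. Windows of TRAM1 and SRPRA were not read. The string was in 3 of these 10 windows, 1 each of SEC61A1, SEC62 and SSR3, and in 1.97% of all 35116 windows in the table. Only the SEC62 match was at the 5′ end of the gene span given above. Those of SEC61A1 and SSR3 were at later annotated starts inside the span, and their windows at the 5′ end lacked the string. In SEC61A1 the string spanned the later start. The start used by the counted transcripts was not read from the counts, and a match is not a bound site.

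The 60 bases before an annotated start are shown for SSR3 and SEC62, which hold the string (capitals), and for SSR2 and SEC61B as windows without it; all are 5′ to 3′ on the strand of the gene, from RefSeq on GRCh38.p14.
SSR3, minus strand, chr3:156554126-156554185: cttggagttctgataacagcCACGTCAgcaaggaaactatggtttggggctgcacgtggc
SEC62, plus strand, chr3:169966747-169966806: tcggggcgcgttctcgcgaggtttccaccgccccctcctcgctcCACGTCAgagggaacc
SSR2, minus strand, chr1:156020952-156021011: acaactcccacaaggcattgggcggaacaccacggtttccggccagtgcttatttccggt
SEC61B, plus strand, chr9:99222222-99222281: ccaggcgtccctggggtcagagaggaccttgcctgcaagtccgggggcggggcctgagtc
The windows of SSR1 and SEC63 lacked the string too. Of the 4 genes shown, SSR3 was called in mRNA of UFSP2-KO against WT and SEC62, SSR2 and SEC61B were not. The SSR3 bases shown lie inside the gene span, before the third of 3 starts annotated for the gene. The string begins 40 bases before that start, and the other SSR3 windows lacked it. In SEC62 the string begins 16 bases before the start.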

How the data were processed

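The authors deposited, for each of 18 libraries, a table of whole-number read counts per Ensembl transcript with another value, a length in codons, and no normalization. The submitters' processing notes name TopHat2 2.1.1 and the build GRCh38, and the counting program is not given in the sources used here. Entries with identical counts in all libraries of an assay were merged, which left 14377 footprint and 15444 mRNA features. CPM and tests used TMM scaling and edgeR 4.0.16 (quasi-likelihood, minimum count 10) in R 4.3.3, with 1 model for the 12 footprint libraries, 1 for the 6 mRNA libraries and 1 for all 18, and adjustment over all features. SEs were derived from the F statistic, as the size of the log2 value over the root of F. They can understate the error of large ratios with few counts. DESeq2 1.42.0 and other settings were alternatives. All 9 listed members are named. A wider list of pathway genes, the nearest profiles to SEC61A1, and UFM1, UFSP2 and RPL26 were not used here, since no table at hand pairs transcripts with gene names. The members and lists were chosen with earlier results of these data known. Figures were drawn with matplotlib 3.10.9.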

Additional observations from a re-analysis of the deposited data

How the results depend on the processing

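Of 39 called values of single genes, 16 lost the call under at least 1 alternative and 0 changed sign; 12 uncalled values were called under at least 1. Counts of called genes moved as follows. For UFSP2-KO against WT, DESeq2 called 2 rather than 4 at the membrane and 1 rather than 2 in the cytosol; against UFM1-KO it called 2 rather than 4 at the membrane, and it called 1 rather than 0 in mRNA of UFM1-KO against WT and against UFSP2-KO. A model of only the groups compared called 0 in each cytosol comparison of lines (reported: 1 for UFM1-KO and 2 for UFSP2-KO against WT, 1 between knockouts), and in mRNA 2 for UFM1-KO and 4 for UFSP2-KO. In mRNA of UFSP2-KO, scaling to library size only called 0 and no low-count filter called 4; the former moved the median of all features to -0.145 and called 1123 features, 15.4% of them higher, against 998, 332 of them higher. Over all features against WT, membrane counts for UFSP2-KO (reported 1232) were 532 by DESeq2 and 2123 with only the groups compared, and for UFM1-KO (139) they were 42, 466 and, with every transcript as deposited, 238. Cytosol counts for UFM1-KO (94) were 34 by DESeq2, 8 with only the groups compared and 50 by library size, and for UFSP2-KO (442) 249 and 294 by the first 2. In mRNA, UFM1-KO (274) had 547 and 580 and UFSP2-KO (998) had 1505 with only the groups compared. Between knockouts DESeq2 called 1276 rather than 2372 at the membrane and 752 rather than 1331 in the cytosol. Leaving out a library gave 0 to 1 members at the membrane of UFSP2-KO against WT, 0 to 2 between knockouts, 0 to 1 in the cytosol of UFM1-KO against WT, 0 to 3 in that of UFSP2-KO, 0 to 1 between knockouts, and in mRNA 0 to 2, 0 to 4 and 0 to 1. A lone library was assumed to vary like the other groups. Per full protein length, SEC62 to SEC63 in WT membranes was 1.04 and SSR1 to SSR2 in UFM1-KO membranes 0.417. The labels do not say that a letter marks a shared culture or day. The a less b differences correlated at 0.032 to 0.221 between footprint groups, all above 0 and at 0.138 to 0.221 among the 3 cytosol groups, and at -0.364 to 0.052 in mRNA. In all 3 cytosol groups library a also had fewer counts than library b. Whether the letters pair libraries was not tested. With the letter as a replicate block, features called against WT in the cytosol went from 94 to 246 (UFM1-KO) and 442 to 852 (UFSP2-KO). At UFM1-KO membranes they went from 139 to 291. The block called 3 genes in mRNA of UFSP2-KO against WT (SSR3, SEC62 and TRAM1, with SEC61A1 lost). Within UFSP2-KO, it called the SEC61B log2 ratio of membrane to cytosol footprints below 0 (-0.68, edgeR adjusted p = 0.0259). SSR2 membrane footprints were called higher in UFM1-KO than UFSP2-KO (0.46, edgeR adjusted p = 0.0461). With the UFSP2-KO mRNA letters crossed, added after seeing the data, the replicate block called 4 genes against WT and 2 against UFM1-KO. The causes were not tested. Depth limits the cytosol values of 7 genes, each at 20 counts or fewer per library.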
